A study of Homo sapiens with 26 samples.

Results

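The 59 genes described here encode the machinery of mitosis: the kinases and cyclins of mitotic entry, the spindle checkpoint, kinesin motors, the kinetochore, the chromosomal passenger complex, the spindle and cytokinesis apparatus, and condensin with other proteins of condensed chromosomes. They were chosen by gene symbol, with no measured value in the rule, out of 18165 genes listed in a first expression table and 17734 in a second. All 59 were present in both tables and passed the filter on low values, which kept 12607 and 12463 genes. Poly(A) RNA of LoVo, an established line from a human colorectal cancer, was sequenced in 26 libraries that form 13 groups of 2. The study asked how mutations of PIK3CA, the gene for a catalytic subunit of PI3K, a lipid kinase upstream of AKT, alter the response to palbociclib. The first table holds H1047R mutant, E545K mutant and wild-type (WT) LoVo cells. Each line was kept in 0.5 µM palbociclib for 72 hours, in medium conditioned by senescent cells, or in DMSO, also labelled as 72 hours. The second holds the H1047R and E545K lines in 0.5 µM palbociclib with 4 µM erlotinib, labelled as 48 hours, or in 0.5 µM palbociclib alone.

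All lines share the LoVo background, and both mutant lines received their PIK3CA allele from a lentiviral vector, so the mutant allele was added to the cells and its promoter is not given. Several clones of each mutant were made, and the series text names 1 of each for the palbociclib experiment, so differences between lines are differences between single clones there. The clones used for conditioned medium and for the second table, the hours in conditioned medium, and the line whose senescent cells made the medium are not given. How long palbociclib alone lasted in the second table is not given either, and the labels also mention a collection of control cells at 48 hours without saying which libraries it covers. Nothing states that the 2 libraries of a group came from separate cultures, so p-values measure the spread between these libraries, which may be technical.

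Progression into mitosis needs a wave of transcription late in the cell cycle. The activator complex of MYBL2 with MuvB, later joined by FOXM1, binds the cell-cycle homology region (CHR) of these promoters, and NF-Y binds their CCAAT boxes; in resting cells the DREAM complex, which shares the MuvB core, represses the same promoters. Palbociclib inhibits the kinases CDK4 and CDK6, which otherwise release E2F factors from the retinoblastoma protein, and erlotinib inhibits the receptor for epidermal growth factor, which signals to the RAS and PI3K pathways.

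Promoter sequences were available in RefSeq (GRCh38.p14) for 50 of the 59 genes, and 5 of these are shown because they span the motifs and the responses described below. Each line gives the 250 bases before the annotated start, 5′ to 3′ on the plus strand, for CCNB1 (chr5:69166900-69167149), CDC20 (chr1:43358731-43358980), KIF20A (chr5:138178862-138179111), HMMR (chr5:163460382-163460631) and CDC25B (chr20:3786701-3786950). Capitals mark 3 kinds of motif, read on either strand. The searches were for the CHR in its form TTTGAA as well as in its other form TTTAAA, for the NF-Y box in the form CCAAT, and for E2F sites in the form TTCGCGC as well as in the closely related form TTGGCGC. On the opposite strand the box is read as ATTGG, and the first form of the CHR as TTCAAA.
CCNB1: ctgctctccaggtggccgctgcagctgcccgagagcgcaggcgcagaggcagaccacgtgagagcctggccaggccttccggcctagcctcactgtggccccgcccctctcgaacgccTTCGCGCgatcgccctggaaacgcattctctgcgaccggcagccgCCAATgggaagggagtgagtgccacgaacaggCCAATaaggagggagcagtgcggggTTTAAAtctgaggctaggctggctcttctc
CDC20: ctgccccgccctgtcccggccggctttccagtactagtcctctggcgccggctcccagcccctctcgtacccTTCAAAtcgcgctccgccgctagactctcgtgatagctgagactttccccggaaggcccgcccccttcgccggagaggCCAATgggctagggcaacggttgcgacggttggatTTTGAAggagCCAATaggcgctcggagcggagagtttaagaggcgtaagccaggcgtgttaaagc
KIF20A: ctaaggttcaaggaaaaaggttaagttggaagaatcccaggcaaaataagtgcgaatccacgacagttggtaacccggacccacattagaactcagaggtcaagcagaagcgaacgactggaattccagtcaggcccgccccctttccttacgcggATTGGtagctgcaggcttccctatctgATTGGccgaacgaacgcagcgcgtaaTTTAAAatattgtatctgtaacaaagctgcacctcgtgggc
HMMR: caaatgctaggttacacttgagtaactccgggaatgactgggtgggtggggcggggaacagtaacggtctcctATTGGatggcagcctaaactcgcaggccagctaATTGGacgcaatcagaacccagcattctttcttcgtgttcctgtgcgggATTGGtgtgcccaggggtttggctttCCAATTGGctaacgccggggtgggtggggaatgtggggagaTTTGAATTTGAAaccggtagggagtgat
CDC25B: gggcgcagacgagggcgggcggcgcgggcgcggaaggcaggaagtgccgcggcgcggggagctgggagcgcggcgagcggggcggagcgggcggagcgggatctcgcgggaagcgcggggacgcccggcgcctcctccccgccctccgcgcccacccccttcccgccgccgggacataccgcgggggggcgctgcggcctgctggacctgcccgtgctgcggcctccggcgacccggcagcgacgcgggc
CCNB1 held a CHR beginning at base -30 from the start, CCAAT boxes at -55 and -87, and an E2F motif at -132. CDC20 held CHR letters at -65 and, on the opposite strand, at -178, and KIF20A a CHR at -41. HMMR held abutting CHR letters at -28 and -22 and 5 CCAAT matches, of which 2 overlap. CDC25B held none of these letters in the window.

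In the 300 bases that run from 250 before to 50 after the start, either CHR was found in 41 of the 50 promoters (82.0%), against 24.3% of 27303 promoters of that length in the same table. CCAAT was found in 36 (72.0%), against 35.7%, and the E2F letters in 9 (18.0%), against 5.2%. Both a CHR and a CCAAT box stood in 31 promoters (62.0%), against 9.5%, and at least 2 CCAAT boxes in 23 (46.0%), against 11.3%. CDC25B and CDC25C, phosphatases that activate CDK1, the factor MYBL2 and the centromere protein CENPI held neither the CHR nor the CCAAT box in this window. A single annotated start was searched per gene, so motifs near other starts of a gene would be missed. The form TTTAAA reads the same on both strands and was counted once. These matches describe letters and not binding.

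Levels are in FPKM, which divides a gene's fragments by its transcript length and by the library total, and they can be compared between genes. Read depth is unknown, since no counts were used here, and no counting interval can be given. FPKM sums per library ran between 441643 and 524290, and 11453 to 12157 genes reached 1 FPKM. Replicate libraries correlated across genes at 0.987 to 0.997, lowest for H1047R palbociclib in the first table, whose 2 libraries also differed along transcript length as described further on. EPCAM, KRT8, KRT18, KRT19 and CDH1 were high in all 26 libraries. The colorectal markers differed in the first table. CDX2 ran between 18.7 and 75.4 FPKM and CEACAM5 between 8.73 and 52.5, whereas KRT20, CDX1 and VIL1 stood at or below 2.44 FPKM. Of markers of other cell types, DCN and LUM were at or below 0.02 FPKM there and CDH5 at or below 0.01, while CD68 ran between 24.1 and 49.4, ACTA2 between 5.27 and 9.74 and COL3A1 between 1.29 and 19.6 FPKM. The summed level of the list for other cell types lay between 46.1 and 64.1 FPKM in the first table and between 45.05 and 75.01 in the second.

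All 59 genes stood at or above 1.26 FPKM in every library. PTTG1, the securin that holds separase inactive, was the highest of them in 12 of the 13 groups, and CENPE, a kinesin of the kinetochore, the lowest in 11. Together the 59 genes made up 0.292% to 0.640% of all FPKM in the first table and 0.115% to 0.461% in the second. In the first table the mean of 49 genes was lowest in WT palbociclib, and the mean of 29 was highest in H1047R conditioned medium. In the second table every gene was lowest in H1047R cells with erlotinib and 58 were highest in E545K cells on palbociclib alone. Such counts were not made over all tested genes. The median member level in each library, after subtracting each gene's own mean over the table, is plotted for all libraries.

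**Figure D1:**
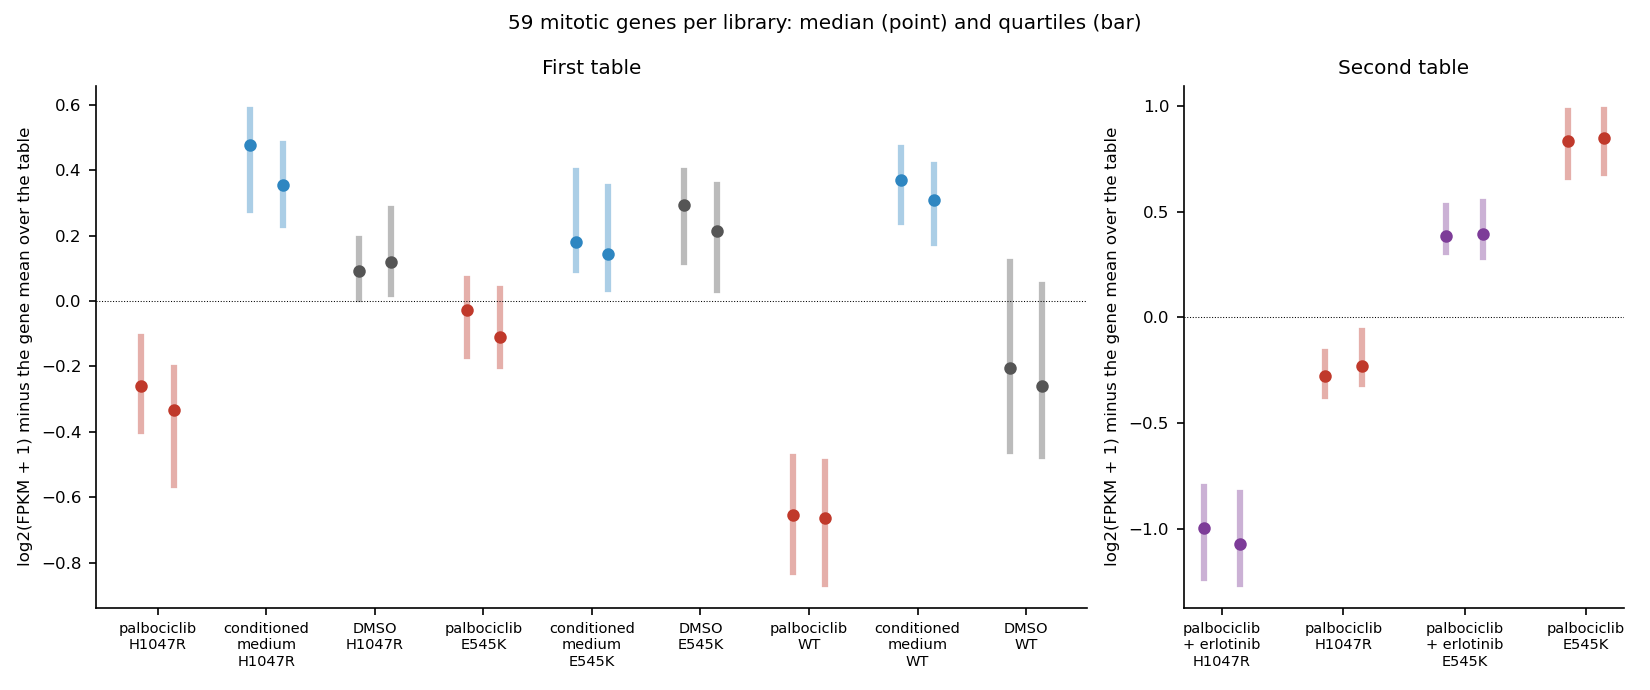
Median (point) and quartiles (bar) over the 59 genes of log2(FPKM + 1) minus each gene's mean over its table, for every library of the first table (left) and the second (right). WT palbociclib lies lowest in the first table and H1047R with erlotinib lowest in the second.

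Palbociclib lowered most of these genes in all 3 lines. Against DMSO, 42 of 59 fell in H1047R, 34 in E545K and 42 in WT cells, with an adjusted p below 0.05 in limma. Over all tested genes 19.8%, 19.3% and 6.77% fell in those lines. Genes that rose under palbociclib numbered 4 in E545K, namely NCAPG, CENPI, SMC2 and HMMR, where 32.9% of all tested genes rose. That count was 2 under quantile normalization, median-centring and a TPM scale. None of the 59 rose in H1047R or WT cells, nor at an unadjusted p below 0.05. At the adjusted p, 19.5% and 27.2% of all tested genes rose there. Fewer cells in mitosis and less RNA per mitotic cell cannot be told apart in bulk RNA. In the first table the summed level of the epithelial and colorectal markers was 12643 to 16731 FPKM in the mutant palbociclib libraries. In mutant DMSO it was 7340.2 to 8629.6. WT palbociclib had 8087 and 8433, against 7029.6 and 7336 in WT DMSO. On palbociclib alone in the second table this summed level was 9238 to 10046 FPKM in the mutant lines. Its part in these changes was not tested.

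All log2 changes below are given relative to the median over all tested genes of the same comparison, because that median itself lay at -0.03, 0.08 and 0.14 for palbociclib in H1047R, E545K and WT cells. The test, by contrast, is of the change from 0. The median relative log2 change of the 59 genes was -0.40 in H1047R, -0.40 in E545K and -0.56 in WT cells. In all, 24 genes fell in all 3 lines, 15 in 2, 16 in 1 and 4 in none, the last being KIF18A, CENPE, CENPI and NCAPG. Calls shared between lines were not counted over all tested genes. The spread was pooled over the table, so a gene has the same SE in each line. When H1047R libraries alone set the spread, the count there dropped to 8. It was 46 without replicate 1 of H1047R palbociclib and 36 without replicate 2.

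Among the kinases and cyclins of mitotic entry, 7 of 10 fell in H1047R, 7 in E545K and 8 in WT cells. CDK1, the kinase that drives entry, stood at 51.3 and 50.3 FPKM in H1047R cells on palbociclib, against 71.3 and 77.2 in DMSO. In E545K cells CDK1 stood at 66.2 and 59.5, against 107 and 99.1, and in WT cells at 48.95 and 46.1, against 79.2 and 76.5 FPKM. Both palbociclib libraries lay below both DMSO libraries in each line. The relative log2 change of CDK1 was -0.51 (SE 0.08, adjusted p = 0.00016) in H1047R, -0.79 (adjusted p = 5.02e-06) in E545K and -0.84 (adjusted p = 2.16e-05) in WT cells. CCNA2, the A-type cyclin that partners CDK1 before mitosis, fell in all 3 lines as well, with changes of -0.58, -0.93 and -0.86 in H1047R, E545K and WT cells.

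CCNB1, the main mitotic cyclin, behaved otherwise: it fell in WT cells alone. It stood at 90.5 and 94.9 FPKM on palbociclib in H1047R cells, against 98.2 and 93.8 in DMSO, and at 110.4 and 103 in E545K cells, against 101 and 101. In WT cells it stood at 44.7 and 47.7 FPKM, against 69.5 and 69.3. The groups overlapped in H1047R, palbociclib lay above DMSO in E545K, and palbociclib lay below DMSO in WT cells. Relative log2 changes were -0.02 (adjusted p = 0.62), 0.00 (adjusted p = 0.404) and -0.72 (SE 0.08, adjusted p = 6.34e-05). For E545K the fitted change itself was 0.08, and its sign turned under median-centring (-0.057) and after removal of a length trend (-0.029).

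PLK1, the polo kinase of centrosomes and kinetochores, likewise fell in WT cells alone. It stood at 31.6 and 37.5 FPKM in H1047R on palbociclib, against 35.5 and 24.9 in DMSO, and at 32.5 and 32.98 in E545K, against 33.4 and 36.4. In WT cells the values were 15.3 and 14.5 FPKM, against 20.2 and 22.9. The groups overlapped in H1047R, where the DMSO libraries themselves were far apart, and were separate in the other lines, with palbociclib lower. The WT change was -0.64 (SE 0.13, adjusted p = 0.00752). In H1047R the fitted change of 0.20 (adjusted p = 0.215) was -0.044 without replicate 2 of DMSO and 0.45, past the threshold, without replicate 1. AURKA, the centrosomal Aurora kinase, fell in every line: 26.3 and 25 FPKM on palbociclib, against 33.4 and 33.6 in DMSO in H1047R, 27.9 and 27.3, against 42.03 and 40.2 in E545K, and 17.9 and 17.7, against 22.7 and 23.1 in WT cells. Its groups did not overlap in any line, and its relative changes were -0.34, -0.64 and -0.48 (adjusted p = 0.000527, 6.05e-06 and 0.00106).

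**Figure D2:**
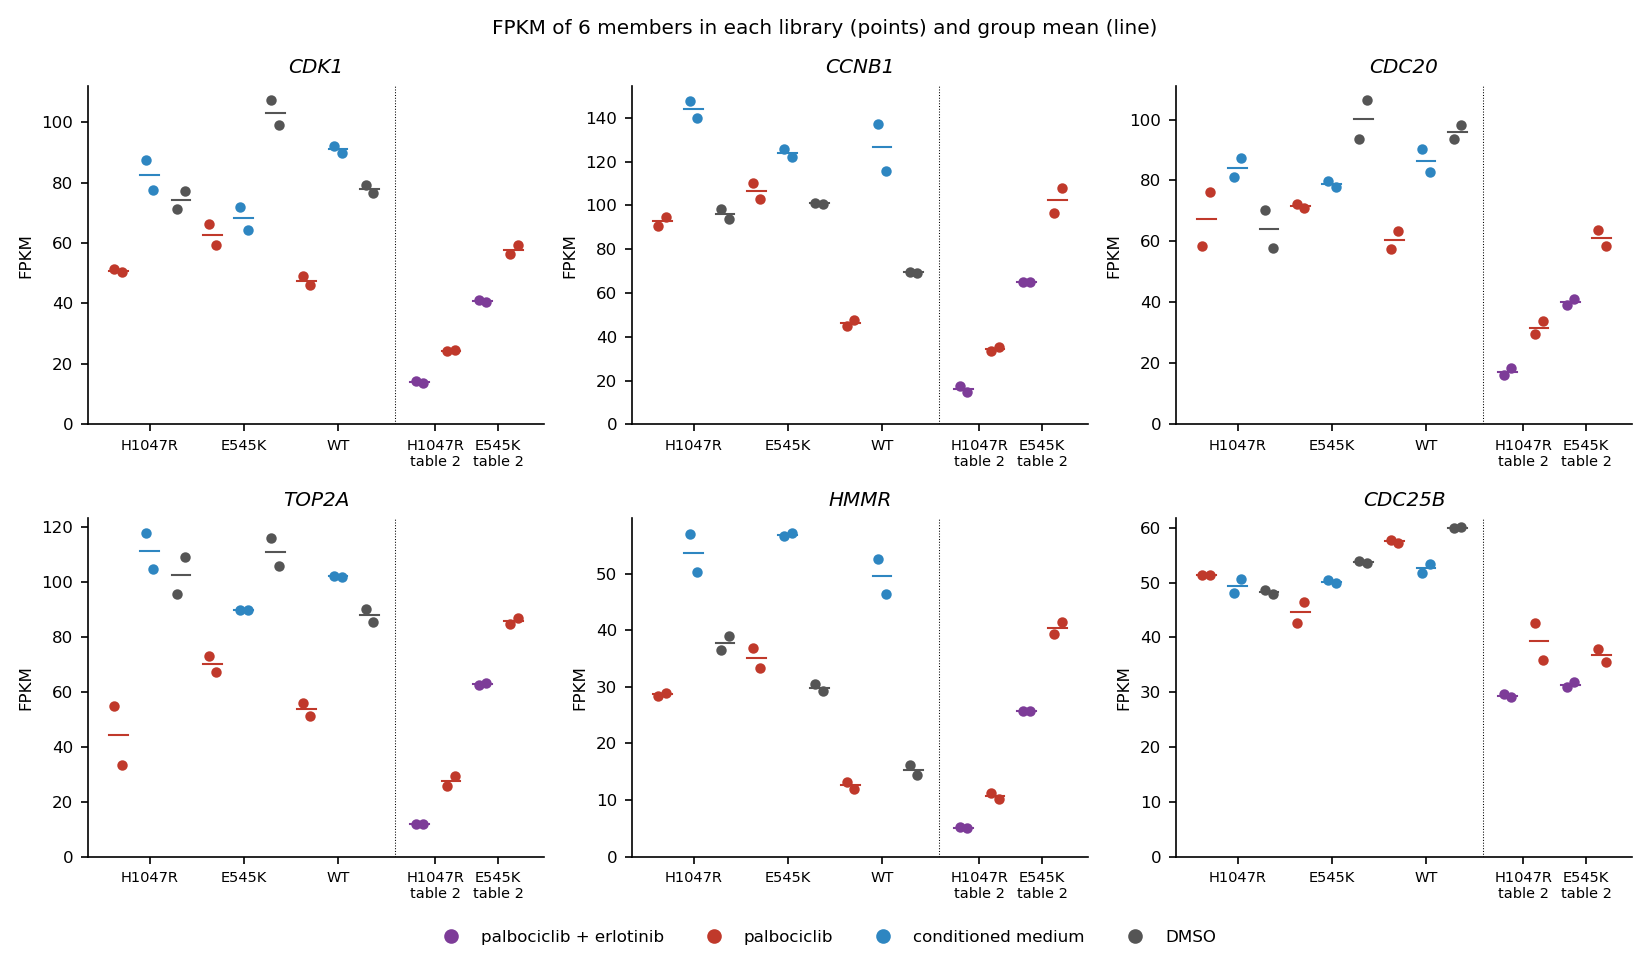
FPKM of CDK1, CCNB1, CDC20, TOP2A, HMMR and CDC25B in each library (points) with the group mean (line), by line and, right of the dotted line, for the second table. CDK1 and TOP2A lie lower on palbociclib than in DMSO in all 3 lines, whereas CCNB1 does so without overlap in WT cells alone.

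Both transcription factors of the set fell in WT cells. FOXM1 stood at 43.9 and 43.2 FPKM on palbociclib in H1047R, against 55.2 and 50.6 in DMSO. In E545K it stood at 48.6 and 47.5, against 45.2 and 43.7, and in WT cells at 25.7 and 26.2, against 29.3 and 30.96 FPKM. Palbociclib libraries were lower in H1047R and WT cells and slightly higher in E545K, without overlap. The relative changes were -0.25 (SE 0.07, adjusted p = 0.00532) in H1047R, 0.03 (adjusted p = 0.179) in E545K and -0.35 (adjusted p = 0.0268) in WT cells. The fitted E545K change of 0.11 changed sign under median-centring (-0.025) and after removal of a length trend (-0.011), and the WT call was lost on a TPM scale. MYBL2 fell in E545K and WT cells, with changes of -0.37 and -0.59.

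Of the 8 genes of the spindle checkpoint and the anaphase-promoting complex (APC/C), 4 fell in H1047R, 7 in E545K and 7 in WT cells. UBE2C, the ubiquitin-conjugating enzyme of the APC/C, stood at 65.95 and 70.7 FPKM on palbociclib in H1047R, against 89.1 and 77.5 in DMSO. In E545K its values were 75.7 and 77.7, against 115 and 118, and in WT cells 61.97 and 58.4, against 116 and 123 FPKM. Palbociclib libraries lay below DMSO libraries everywhere, by the least in H1047R. UBE2C had the lowest change of all 59 genes in WT cells, -1.12 (SE 0.08, adjusted p = 8.84e-07), with -0.68 (adjusted p = 1.26e-05) in E545K and -0.25 (adjusted p = 0.00948) in H1047R.

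CDC20, the APC/C activator that the checkpoint holds back, stood at 58.4 and 76.4 FPKM on palbociclib in H1047R, against 70.2 and 57.9 in DMSO, a pair of overlapping groups. In E545K it stood at 72.3 and 70.9, against 93.6 and 106, and in WT cells at 57.4 and 63.5, against 93.6 and 98.2 FPKM. Palbociclib was lower in those lines, with changes of -0.56 (adjusted p = 0.00296) and -0.80 (SE 0.11, adjusted p = 0.000596). The H1047R change of 0.09 (adjusted p = 0.676), fitted at 0.07, turned negative under quantile normalization (-0.054), on a TPM scale (-0.024), after removal of a length trend (-0.021) and without replicate 2 of H1047R DMSO (-0.071) or of H1047R palbociclib (-0.13).

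BUB1B, the checkpoint pseudokinase BubR1, fell in all 3 lines. It stood at 24.3 and 16.7 FPKM on palbociclib in H1047R, against 35.04 and 37.3 in DMSO, at 30.3 and 28.7, against 41.9 and 36.6 in E545K, and at 19.1 and 18.1, against 29.6 and 27.1 in WT cells. No groups overlapped, though the H1047R palbociclib libraries differed more from each other than those of the other lines. Its changes were -0.78 (SE 0.13, adjusted p = 0.000204), -0.48 (adjusted p = 0.0159, lost on a TPM scale) and -0.72 (adjusted p = 0.00268). PTTG1 fell in all 3 lines too, with changes of -0.45, -0.95 and -0.84, and only KIF2C had a lower change in E545K (adjusted p = 2.49e-06 for PTTG1).

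Of the 11 kinesin motors, 9 fell in H1047R, 4 in E545K and 4 in WT cells. KIF20A, a motor of the central spindle needed for cytokinesis, stood at 25.6 and 25.7 FPKM on palbociclib in H1047R, against 37.5 and 33.8 in DMSO. In E545K its values were 26.8 and 26.98, against 43.7 and 46.2, and in WT cells 19.4 and 19.7, against 28.4 and 30.6 FPKM. The groups were apart in every line, with changes of -0.43 (SE 0.07, adjusted p = 0.000148), -0.80 (adjusted p = 8.99e-07) and -0.70 (adjusted p = 3.02e-05). KIF2C, which depolymerizes microtubules at centromeres, had the lowest change of the set in E545K, 30.1 and 29.6 FPKM on palbociclib against 54.3 and 56.6 in DMSO, without overlap and with a change of -0.95 (SE 0.07, adjusted p = 2.01e-07). KIF23, the motor subunit of centralspindlin, fell in WT cells to 15.1 and 14.99 FPKM, against 24.9 and 23.6 in DMSO, but lay at 34.6 and 33.1 FPKM in E545K on palbociclib, against 31.5 and 27.9, a difference of 0.10 that did not pass the test (adjusted p = 0.134).

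Of the 8 kinetochore and centromere genes, 5 fell in H1047R, 2 in E545K, where 1 rose, and 4 in WT cells, beside 19.8%, 19.3% and 6.77% of all tested genes that fell. The E545K share was near that of all genes, and the counts were not tested between lines. CENPF, a large protein of the outer kinetochore, stood at 14.5 and 8.24 FPKM on palbociclib in H1047R, against 21.1 and 24.5 in DMSO. Its values were 17.7 and 17.5, against 18.3 and 14.9 in E545K and 8.72 and 7.34, against 9.45 and 8.16 in WT cells, where the groups overlapped in both lines. The H1047R change was -0.96 (SE 0.18, adjusted p = 0.000639), and those of E545K and WT cells were 0.00 (adjusted p = 0.716) and -0.26 (adjusted p = 0.639). CENPI, a subunit of the inner kinetochore, rose in E545K to 7.70 and 7.32 FPKM, against 5.65 and 5.32 in DMSO, a change of 0.31 (SE 0.11, adjusted p = 0.00797).

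The 4 subunits of the chromosomal passenger complex, which corrects attachments of chromosomes to the spindle, fell together in WT cells, and 3 and 2 of them fell in E545K and H1047R. AURKB, its kinase, stood at 33.1 and 40.4 FPKM on palbociclib in H1047R, against 50.05 and 48.1 in DMSO, at 41.2 and 41.6, against 73.1 and 77.6 in E545K, and at 29.5 and 34.1, against 60.4 and 60.9 in WT cells. No groups overlapped, and its change in WT cells was -1.05 (SE 0.09, adjusted p = 4.09e-06). BIRC5, the subunit also known as survivin, stood at 27.2 and 36.7 FPKM in H1047R on palbociclib, against 36.7 and 31.01, at 35.6 and 35.8 in E545K, against 38.6 and 42.5, and at 17.9 and 18.4 in WT cells, against 30.4 and 30.8. Its groups overlapped in H1047R, and it passed the test in WT cells alone, with a change of -0.86 (SE 0.11, adjusted p = 0.000202); in H1047R the fitted change of -0.09 became 0.027 without replicate 1 of DMSO and 0.12 without replicate 1 of palbociclib.

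Of the 9 genes of spindle assembly and cytokinesis, 9 fell in H1047R, 6 in E545K, where HMMR rose, and 8 in WT cells. ANLN (anillin, a scaffold of the contractile ring), PRC1 (which bundles the microtubules of the midzone), RACGAP1 (the other subunit of centralspindlin), DLGAP5, NUSAP1 and TPX2 fell in all 3 lines. HMMR, a spindle protein that is also a receptor for hyaluronan, stood at 28.4 and 28.96 FPKM on palbociclib in H1047R, against 36.6 and 39.02 in DMSO, at 36.95 and 33.4, against 30.6 and 29.2 in E545K, and at 13.2 and 11.99, against 16.3 and 14.3 in WT cells. It was lower on palbociclib in H1047R and WT cells and higher in E545K, in each case without overlap. Changes in H1047R, E545K and WT cells were -0.36 (SE 0.09, adjusted p = 0.00343), 0.15 (adjusted p = 0.0412) and -0.40 (adjusted p = 0.0315). The count of members that rose in E545K went from 4 to 2 under quantile normalization, median-centring and a TPM scale. Whether HMMR kept its E545K call there was not followed.

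Among the 7 genes of condensed chromosomes, MKI67, TOP2A and the condensin subunits NCAPD2 and SMC4 fell in all 3 lines. MKI67, the proliferation antigen Ki-67 that coats mitotic chromosomes, stood at 31.6 and 16.6 FPKM on palbociclib in H1047R, against 55.5 and 61.2 in DMSO. Its values were 34.8 and 37.9, against 61.8 and 48.6 in E545K and 25.6 and 24.1, against 52.2 and 45.7 in WT cells. No groups overlapped, but the 2 H1047R palbociclib libraries were far apart. MKI67 had the lowest change of the set in H1047R, -1.28 (SE 0.19, adjusted p = 0.000141), with -0.66 (adjusted p = 0.0204) in E545K, a call lost without the filter on low values and on a TPM scale, and -1.09 (adjusted p = 0.00186) in WT cells.

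TOP2A, the topoisomerase that untangles sister chromatids, stood at 54.8 and 33.4 FPKM on palbociclib in H1047R, against 95.5 and 109 in DMSO, at 72.9 and 67.2, against 116 and 106 in E545K, and at 55.99 and 51.1, against 90.2 and 85.4 in WT cells. Every palbociclib library lay below every DMSO library, with changes of -1.21 (SE 0.15, adjusted p = 2.96e-05), -0.74 (adjusted p = 0.00236) and -0.84 (adjusted p = 0.0029). NCAPD2, a regulatory subunit of condensin I, stood at 47.3 and 43.7 FPKM on palbociclib in H1047R, against 79.8 and 72.8, at 52.1 and 55.6 in E545K, against 87.9 and 88.9, and at 37.8 and 36.8 in WT cells, against 53.4 and 54.9. Its changes of -0.70, -0.79 and -0.66 passed the test in every line (adjusted p = 1.04e-06, 6.29e-07 and 3.49e-05). Other subunits of the same complex moved the other way in E545K: NCAPG rose to 19.6 and 19.1 FPKM, against 13.1 and 12.2 in DMSO, a change of 0.49 (SE 0.12, adjusted p = 0.00115), and SMC2 to 15.7 and 14.1 FPKM, against 12.04 and 11.3, a change of 0.24 (SE 0.10, adjusted p = 0.0143) that was lost under quantile normalization, median-centring and a TPM scale.

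Some palbociclib calls named above rested on single libraries. In H1047R the call of UBE2C was lost without replicate 1 of DMSO. In E545K the calls of BUB1B and MKI67 were lost without DMSO replicate 1, those of CENPI and SMC2 without DMSO replicate 2, and at least 1 of the palbociclib libraries ended each of them as well. In WT cells the call of FOXM1 was lost without any 1 of the 4 libraries, and that of PLK1 without replicate 2 of DMSO or of palbociclib. With the spread taken from the H1047R groups alone, AURKA, BUB1B, CDK1, CENPF, FOXM1, KIF20A and UBE2C lost their calls in H1047R.

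**Figure D3:**
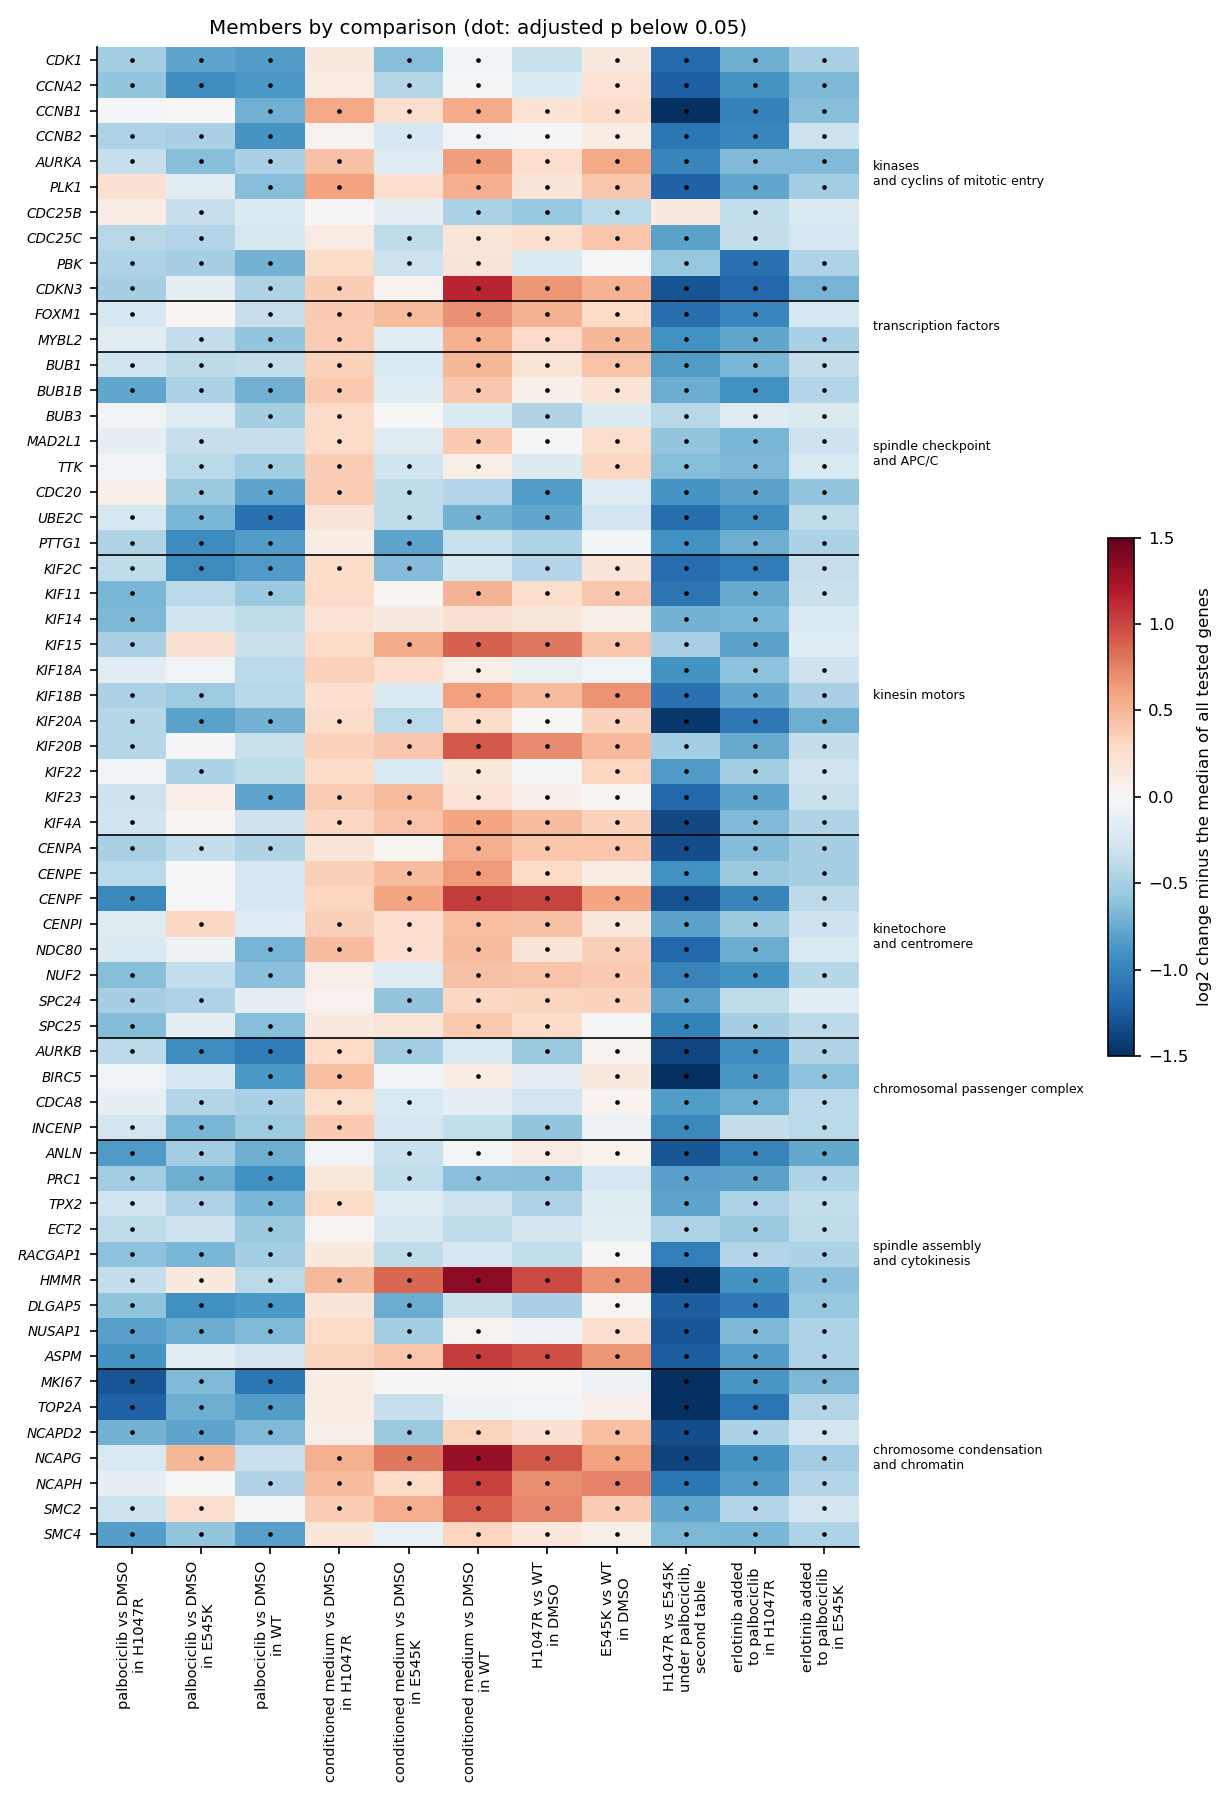
Log2 change minus the median of all tested genes (colour, blue lower and red higher) of the 59 genes, ordered by role, in 11 comparisons; a dot marks an adjusted p below 0.05 for the change from 0. The columns for palbociclib, for H1047R against E545K in the second table and for erlotinib are mostly blue. Those for conditioned medium in H1047R and WT cells and for E545K against WT are mostly red. The column for H1047R against WT is mixed, with 26 of the 59 genes below the median of all tested genes.

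Whether the lines responded differently to palbociclib was tested as a difference of differences. The response of E545K differed from that of WT cells in 12 of the 59 genes, of which 11 were higher (10.9% of all tested genes) and 1 lower (14.7%). The highest were KIF23 at 0.88 (SE 0.14, adjusted p = 0.000692), NCAPG at 0.82 (SE 0.17, adjusted p = 0.0047) and CCNB1 at 0.70 (SE 0.11, adjusted p = 0.00057). FOXM1, UBE2C and BIRC5 were also higher, and the lower one was SPC24, a kinetochore subunit, at -0.34 (adjusted p = 0.0463), a call lost with a pseudocount of 0.1, without the filter, and under quantile normalization, median-centring and a TPM scale. The count was 7 without WT DMSO replicate 1 or E545K DMSO replicate 2, and 5 without WT DMSO replicate 2, WT palbociclib replicate 2 or E545K palbociclib replicate 1.

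The response of H1047R differed from that of WT cells in 12 genes too, 8 higher (5.16% of all tested genes) and 4 lower (17.4%). The highest were CDC20 at 0.89 (SE 0.16, adjusted p = 0.0082), PLK1 at 0.87 (SE 0.18, adjusted p = 0.0146) and UBE2C at 0.87 (SE 0.11, adjusted p = 0.000919), and CCNB1 and BIRC5 were higher too. Both response differences use the same WT libraries, so their lists are not independent. The lowest were CENPF at -0.70 (SE 0.25, adjusted p = 0.0247), ASPM, a protein of spindle poles, at -0.60 (adjusted p = 0.0242) and SPC24 at -0.37 (adjusted p = 0.0138). The split depended on scaling: it was 8 higher and 2 lower under quantile normalization, 18 and 1 under median-centring and 6 and 6 on a TPM scale. It was 10 higher and 18 lower without replicate 1 of H1047R palbociclib, 10 and 1 without replicate 2, and the count was 4 without replicate 2 of H1047R DMSO, 5 without replicate 2 of WT DMSO and 6 without replicate 1 of WT palbociclib. CENPF, ASPM, PLK1 and SPC24 each lost the call without replicate 2 of H1047R DMSO and without replicate 2 of WT DMSO, and CENPF and ASPM also without the filter on low values.

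Conditioned medium raised many of these genes in H1047R and WT cells and had a mixed result in E545K. Against DMSO, 27 of 59 rose in H1047R (8.65% of all tested genes), where none fell, even at an unadjusted p below 0.05. At the adjusted p, 5.97% of all tested genes fell there. In E545K 15 rose (32.4%) and 20 fell (24.9%). In WT cells 42 rose (51.9%) and 3 fell (18.6%), which were UBE2C, PRC1 and CDC25B. The median relative change was 0.29 in H1047R, -0.18 in E545K and 0.27 in WT cells, where the median of all genes was 0.29. The split depended on scaling in E545K, with 12 higher and 30 lower under median-centring and 16 and 14 on a TPM scale, and in WT cells, with 30 and 14 under median-centring. Ribosomal protein genes held 19.6% to 19.8% of all FPKM in WT conditioned medium, against 24.9% to 25.1% in WT DMSO, and 15.8% to 16.0% in E545K conditioned medium, against 18.5% to 19.9% in E545K DMSO. Their part in these shifts was not tested.

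The 3 genes that rose most in WT cells were HMMR, NCAPG and CDKN3, a phosphatase that acts on cyclin-dependent kinases. HMMR stood at 52.6 and 46.5 FPKM in conditioned medium, against 16.3 and 14.3 in DMSO, and NCAPG at 22.6 and 20.8, against 7.29 and 5.81. CDKN3 stood at 142 and 131 FPKM, against 50.5 and 49.5. None of these groups overlapped, and the relative changes were 1.34 (SE 0.09, adjusted p = 9.81e-10), 1.303 (SE 0.12, adjusted p = 2.96e-08) and 1.14 (SE 0.07, adjusted p = 4.92e-10). UBE2C fell to 90.95 and 88.7 FPKM in WT cells, against 116 and 123 in DMSO, a change of -0.70 (SE 0.08, adjusted p = 0.000187). PRC1 and CDC25B had changes of -0.63 and -0.48 (adjusted p = 0.00288 and 0.0103), and both calls were lost on a TPM scale. All 8 kinetochore and centromere genes rose in WT cells, whereas 1 of 4 subunits of the passenger complex did.

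In E545K cells the same medium raised 15 of the 59 genes and lowered 20, beside 32.4% and 24.9% of all tested genes. HMMR rose to 56.7 and 57.2 FPKM, against 30.6 and 29.2 in DMSO, NCAPG to 23.5 and 23.5, against 13.1 and 12.2, and CENPF to 27.5 and 25.2, against 18.3 and 14.9. PTTG1 fell to 155 and 142 FPKM, against 233 and 266, DLGAP5, which binds spindle microtubules, to 25.1 and 22.8, against 40.4 and 38.6, and KIF2C to 35.96 and 36.4, against 54.3 and 56.6. The groups of these 6 genes did not overlap. Their changes were 0.86, 0.80 and 0.59 for those that rose (adjusted p = 6.91e-07, 3.61e-05 and 0.00637) and -0.79, -0.75 and -0.65 for those that fell (adjusted p = 7.57e-06, 2.88e-05 and 4.46e-06). CDK1 at 71.95 and 64.4 FPKM, UBE2C at 97.2 and 87.98, CDC20 at 79.8 and 77.95, KIF20A at 35.9 and 33.98 and NCAPD2 at 60.9 and 62.5 fell as well, while CCNB1 at 126 and 122 and FOXM1 at 66.0 and 62.4 rose.

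In H1047R cells PLK1, CCNB1 and NCAPG rose most. PLK1 stood at 45.5 and 46.7 FPKM in conditioned medium, against 35.5 and 24.9 in DMSO, CCNB1 at 148 and 139.8, against 98.2 and 93.8, and NCAPG at 24.7 and 23.2, against 16.04 and 16.4. The groups were apart in each, with changes of 0.61 (SE 0.13, adjusted p = 0.00564), 0.57 (SE 0.08, adjusted p = 0.000342) and 0.53 (SE 0.12, adjusted p = 0.00961). AURKA at 47.6 and 44.5, FOXM1 at 68.2 and 72.1, BUB1B at 51.3 and 45.2, BIRC5 at 45.99 and 47.4, CDC20 at 81.05 and 87.3 and KIF20A at 43.4 and 43.6 FPKM rose too. MKI67 at 65.4 and 61.7, TOP2A at 118 and 104, CDK1 at 87.5 and 77.7, UBE2C at 98.2 and 94.2, CENPF at 30.99 and 26.8 and NCAPD2 at 80.4 and 82.6 FPKM did not pass the test, with relative changes between 0.09 and 0.32. The count of 27 became 15 when the H1047R groups alone set the spread, 18 without replicate 2 of H1047R DMSO, and 8 and 12 without replicate 1 and 2 of H1047R conditioned medium. PLK1 lost its call without replicate 2 of DMSO and NCAPG without replicate 1 of conditioned medium.

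The remaining values in conditioned medium complete the comparison for WT and E545K cells. In WT cells CCNB1 stood at 137 and 116 FPKM, AURKA at 45.5 and 42.9, PLK1 at 41.1 and 37.3, FOXM1 at 62.9 and 58.1, BUB1B at 47.1 and 45.96, KIF20A at 45.3 and 42.8, CENPF at 24.2 and 23.5, BIRC5 at 41.3 and 40.02, NCAPD2 at 84.2 and 83.8 and CDK1 at 92.2 and 89.8. All 10 rose in the test of the change from 0. The rise of CDK1 was smaller than the median over all tested genes, which was 0.29 there. MKI67 at 56.7 and 62.5, TOP2A at 102 and 102 and CDC20 at 90.2 and 82.8 FPKM in WT cells did not pass the test (adjusted p = 0.208, 0.227 and 0.26). In E545K cells AURKA at 38.5 and 35.6, PLK1 at 44.4 and 41.1, BUB1B at 36.5 and 34.9, BIRC5 at 41.9 and 38.7, MKI67 at 58.9 and 55.9 and TOP2A at 89.7 and 89.7 FPKM did not pass it, with adjusted p between 0.0665 and 0.946.

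The response to conditioned medium differed from that of WT cells in 44 genes in E545K, all lower, where 37.1% of all tested genes were lower and 10.0% higher. None was higher at an unadjusted p below 0.05. The median relative difference was -0.40, and the lowest were CDKN3 at -1.11 (SE 0.10, adjusted p = 2.17e-07), SPC24 at -0.92 (SE 0.13, adjusted p = 1.1e-05) and NCAPD2 at -0.91 (SE 0.09, adjusted p = 3.71e-07). In H1047R the response differed in 30 genes, 24 lower (40.5% of all tested genes) and 6 higher (10.4%), with a median of -0.02, so that the share of lower genes was at the background. HMMR at -0.87 (SE 0.12, adjusted p = 4.99e-06), NCAPG at -0.78 and CDKN3 at -0.78 were lowest, and UBE2C at 0.89, CDC20 at 0.82 and PRC1 at 0.78 highest. The H1047R split was 7 higher and 15 lower under quantile normalization, 15 and 9 under median-centring and 2 and 26 on a TPM scale.

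Set directly against conditioned medium, palbociclib gave lower values of 58 of the 59 genes in H1047R, 22 in E545K and 58 in WT cells. The background of lower genes was 17.6%, 7.13% and 40.5%, and that of higher genes 15.2%, 13.0% and 21.0%. None of the 59 was higher, though 1 was in WT cells at an unadjusted p below 0.05. CDC25B was the gene that fell in none of the lines, and 22 genes fell in all 3, a shared count not taken over all tested genes. Median relative changes were -0.68, -0.29 and -0.91. In H1047R MKI67, TOP2A and CENPF had the lowest changes, -1.38, -1.31 and -1.27. In WT cells these were HMMR, NCAPG and CDKN3, at -1.75, -1.65 and -1.62. In E545K HMMR was lowest at -0.71 (SE 0.09, adjusted p = 6.59e-05), followed by MKI67 at -0.67 (adjusted p = 0.0282) and CENPF at -0.58 (adjusted p = 0.0378), of which the last pair lost the call without the filter and on a TPM scale. The E545K count was 37 after removal of a length trend and 39 when the E545K groups alone set the spread. It was 10 and 8 without replicate 1 and 2 of E545K palbociclib, and 5 and 9 without replicate 1 and 2 of E545K conditioned medium. The H1047R count was 55 without either H1047R palbociclib library.

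In DMSO, without palbociclib, most of the set was higher in the mutant lines than in WT cells. For H1047R that share was near the one over all tested genes. In H1047R 34 genes were higher and 9 lower, where 49.9% and 17.5% of all tested genes were. In E545K 43 were higher and 1, CDC25B, was lower, against 48.4% and 10.4%. Medians relative to all genes were 0.12 and 0.21, where all genes had medians of 0.26 and 0.25, so that part of each count is shared with all genes. Ribosomal protein genes held 20.2% to 21.4% of all FPKM in H1047R DMSO and 18.5% to 19.9% in E545K DMSO, against 24.9% to 25.1% in WT DMSO, and their part in this comparison was not tested. The split was 17 higher and 18 lower in H1047R under median-centring and 36 and 4 on a TPM scale, and 26 and 5 in E545K under median-centring.

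CENPF was the gene most raised in H1047R DMSO, at 21.1 and 24.5 FPKM, against 9.45 and 8.16 in WT DMSO, followed by HMMR at 36.6 and 39.02, against 16.3 and 14.3, and ASPM at 10.6 and 12.7, against 4.59 and 4.19. Their changes were 1.02 (SE 0.18, adjusted p = 1.55e-05), 0.99 (SE 0.09, adjusted p = 1.62e-08) and 0.96 (SE 0.15, adjusted p = 6.16e-06), without overlap. CDC20 was lower at 70.2 and 57.9 FPKM in H1047R, against 93.6 and 98.2 in WT cells, a change of -0.84 (SE 0.11, adjusted p = 0.000402), followed by UBE2C at -0.78 and PRC1 at -0.64, the last of which lost its call on a TPM scale. In E545K NCAPH, the kleisin subunit of condensin I, was most raised, at 20.1 and 17.96 FPKM, against 8.98 and 9.06, a change of 0.74 (SE 0.08, adjusted p = 1.46e-07). KIF18B, a motor at microtubule plus ends, and HMMR followed at 0.67 and 0.67. CDC25B stood at 54.03 and 53.6 FPKM in E545K DMSO, against 59.9 and 60.2 in WT DMSO, a change of -0.41 (SE 0.06, adjusted p = 0.0333) that was lost on a TPM scale and without any 1 of the 4 libraries.

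The mutant lines were compared under palbociclib in both tables. In the first table H1047R was lower than E545K in 24 genes (11.5% of all tested genes) and CDC25B was higher (4.75%). TOP2A at -0.59 (SE 0.15, adjusted p = 0.00746), CENPF at -0.54 and MKI67 at -0.53 had the lowest changes. The calls of CENPF and MKI67 were lost without the filter on low values, and that of CDC25B on a TPM scale. This count of 25 depended on the setting. It was 16 without the filter and under quantile normalization, 9 under median-centring, 38 on a TPM scale, 12 after removal of a length trend and 0 when limma took the spread from these groups alone. In the fit over all groups 42 genes were lower at an unadjusted p below 0.05, where all tested genes were not counted. Without replicate 1 or 2 of H1047R palbociclib it was 35 or 8, and without replicate 1 or 2 of E545K palbociclib 2 or 11.

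In libraries of the second table, 58 of 59 genes were lower in H1047R than in E545K on palbociclib (30.1% of all tested genes). CDC25B did not pass the test. None of the 59 was higher, even at an unadjusted p below 0.05, and at the adjusted p 21.5% of all tested genes were. The median relative change was -1.04. MKI67 stood at 10.8 and 11.2 FPKM in H1047R, against 44.6 and 45.04 in E545K, HMMR at 11.2 and 10.2, against 39.3 and 41.5, and BIRC5 at 8.99 and 10.3, against 33.2 and 30.4. Their changes were -1.89 (SE 0.05, adjusted p = 1.55e-07), -1.78 (SE 0.06, adjusted p = 3.76e-07) and -1.58 (SE 0.08, adjusted p = 2.25e-06). CDC25B stood at 42.6 and 35.9 FPKM in H1047R, against 37.95 and 35.6 in E545K, overlapping groups with a change of 0.13 (adjusted p = 0.376).

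The tables are separate files, so levels across them are given side by side and were not tested. On palbociclib alone the median over the 59 genes of the group mean was 11.8 FPKM in H1047R in the second table and 24.2 in the first, and 58 genes were lower in the second. In E545K it was 27.3 FPKM in the second table and 28.7 in the first, with 23 genes lower. Neither count of lower genes was taken over all tested genes. MKI67, for example, stood at 10.8 and 11.2 FPKM in the second table and 31.6 and 16.6 in the first in H1047R. In E545K it stood at 44.6 and 45.04 FPKM in the second table and 34.8 and 37.9 in the first. Hours of treatment and clone are not given for these libraries of the second table, and their part cannot be told apart from that of the line.

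Erlotinib added to palbociclib lowered the set in both mutant lines. In H1047R 57 of 59 genes fell (6.35% of all tested genes) and in E545K 52 (9.11%). None rose in either line, even at an unadjusted p below 0.05. At the adjusted p, 3.01% and 7.10% of all tested genes rose in H1047R and E545K. Both libraries with erlotinib lay below both libraries with palbociclib alone for 59 of 59 genes in each line. How many of all tested genes did so was not counted. The median relative change was -0.76 in H1047R and -0.44 in E545K. In 58 genes the group means kept 1 order from low to high: H1047R with erlotinib, H1047R without, E545K with erlotinib, E545K without. The share of all tested genes in that order was not counted either. The combination is labelled as 48 hours while the hours of palbociclib alone are not given, so the drug and the time cannot be told apart.

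The 3 genes that fell most in H1047R were CDKN3, PBK, a mitotic kinase, and TOP2A. CDKN3 stood at 11.3 and 10.2 FPKM with erlotinib, against 22.96 and 29.5 on palbociclib alone, PBK at 7.38 and 6.18, against 14.8 and 17.9, and TOP2A at 12.04 and 11.96, against 25.6 and 29.3. Their changes were -1.17 (SE 0.11, adjusted p = 0.000817), -1.12 (SE 0.10, adjusted p = 0.000765) and -1.09 (SE 0.07, adjusted p = 0.000258). In E545K ANLN, KIF20A and CDKN3 fell most. ANLN stood at 44.0 and 42.2 FPKM with erlotinib, against 74.7 and 74.1, KIF20A at 12.9 and 13.3, against 22.6 and 22.5, and CDKN3 at 39.3 and 42.5, against 65.99 and 68.4. These changes were -0.77 (SE 0.08, adjusted p = 0.00117), -0.74 (SE 0.07, adjusted p = 0.000813) and -0.70 (SE 0.11, adjusted p = 0.00452).

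The regulators of mitotic entry and exit followed in the same direction. In H1047R CDK1 stood at 14.3 and 13.5 FPKM with erlotinib, against 24.1 and 24.6, CCNB1 at 17.5 and 14.9, against 33.6 and 35.1, AURKA at 7.80 and 7.22, against 12.03 and 13.6, and PLK1 at 6.79 and 7.15, against 12.6 and 13.4. In E545K CDK1 stood at 41.05 and 40.4 FPKM, against 56.4 and 59.2, CCNB1 at 64.9 and 64.9, against 96.8 and 108, AURKA at 16.1 and 17.7, against 26.3 and 28.3, and PLK1 at 21.6 and 23.4, against 32.6 and 32.4. All 4 genes fell in both lines, with changes of -1.01 to -0.66 in H1047R and -0.66 to -0.49 in E545K. CDC20 stood at 16.2 and 18.3 FPKM with erlotinib in H1047R, against 29.5 and 33.8, and at 39.1 and 40.97 in E545K, against 63.8 and 58.5. UBE2C stood at 14.9 and 16.1, against 33.2 and 29.3 in H1047R and at 54.4 and 54.7, against 69.8 and 73.5 in E545K, and BUB1B at 9.05 and 7.51, against 15.5 and 18.1 in H1047R and at 22.2 and 20.99, against 29.04 and 30.4 in E545K. These also fell in both lines.

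FOXM1 was among the few genes whose fall was called in 1 line. It stood at 9.95 and 10.2 FPKM with erlotinib in H1047R, against 19.1 and 23.9, and at 41.3 and 40.3 in E545K, against 50.6 and 48.3, with changes of -0.98 (SE 0.09, adjusted p = 0.00085) and -0.27 (adjusted p = 0.0835). MKI67 stood at 5.53 and 5.29 FPKM with erlotinib, against 10.8 and 11.2 in H1047R, and at 27.6 and 27.6, against 44.6 and 45.04 in E545K. TOP2A stood at 62.4 and 63.1, against 84.6 and 86.6 in E545K. These fell, as did KIF20A in H1047R at 3.03 and 2.75, against 7.80 and 7.01 FPKM. CENPF stood at 3.68 and 3.59, against 8.06 and 8.79 in H1047R and 17.1 and 17.1, against 22.4 and 23.4 in E545K. BIRC5 stood at 4.90 and 4.47, against 8.99 and 10.3 in H1047R and at 20.03 and 20.7, against 33.2 and 30.4 in E545K. NCAPD2 stood at 13.3 and 13.3, against 19.7 and 19.1 in H1047R and at 42.8 and 42.4, against 51.3 and 52.2 in E545K. All 3 fell in both lines, NCAPD2 by the least, at -0.47 and -0.27.

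SPC24 was the gene called in neither line, at 2.26 and 2.80 FPKM with erlotinib in H1047R, against 4.25 and 3.19, and 6.57 and 6.37 in E545K, against 7.68 and 7.19. BUB3, a checkpoint protein that also serves outside mitosis, had the smallest change in H1047R, 40.9 and 39.96 FPKM, against 46.03 and 49.5, a change of -0.20 (SE 0.06, adjusted p = 0.0378). In all, 51 genes fell in both lines, a shared count not taken over all tested genes. Leaving out 1 of the 4 E545K libraries of the second table brought the E545K count to 29 and 26 (palbociclib replicate 1 and 2) or 27 and 23 (erlotinib replicate 1 and 2), as 1 group then held a lone library assumed to vary like the others. BUB1B and NCAPD2 lost the E545K call in each case, and CENPF and UBE2C in 3 of the 4.

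The change with erlotinib was lower in H1047R than in E545K in 12 genes and higher in none, with 1.27% and 0.899% of all tested genes in those directions. At an unadjusted p below 0.05 it was lower in 41 and higher in 0, a count not taken over all tested genes. The lowest differences were FOXM1 at -0.71 (SE 0.13, adjusted p = 0.0302), KIF2C at -0.70 (SE 0.09, adjusted p = 0.00839) and TOP2A at -0.65 (SE 0.09, adjusted p = 0.0119), and CENPF and UBE2C were also lower. KIF2C stood at 5.18 and 5.15 FPKM with erlotinib, against 11.6 and 12.5 in H1047R, and at 21.9 and 22.6, against 29.4 and 27.7 in E545K. This count rested on single libraries. It was 36 and 21 without replicate 1 and 2 of H1047R palbociclib, 2 and 1 without those of E545K palbociclib, 0 and 1 without those of E545K with erlotinib, and 1 and 0 without those of H1047R with erlotinib. It was 6 without the filter on low values and 5 with a replicate block, and the call of FOXM1 was lost in both.

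**Figure D4:**
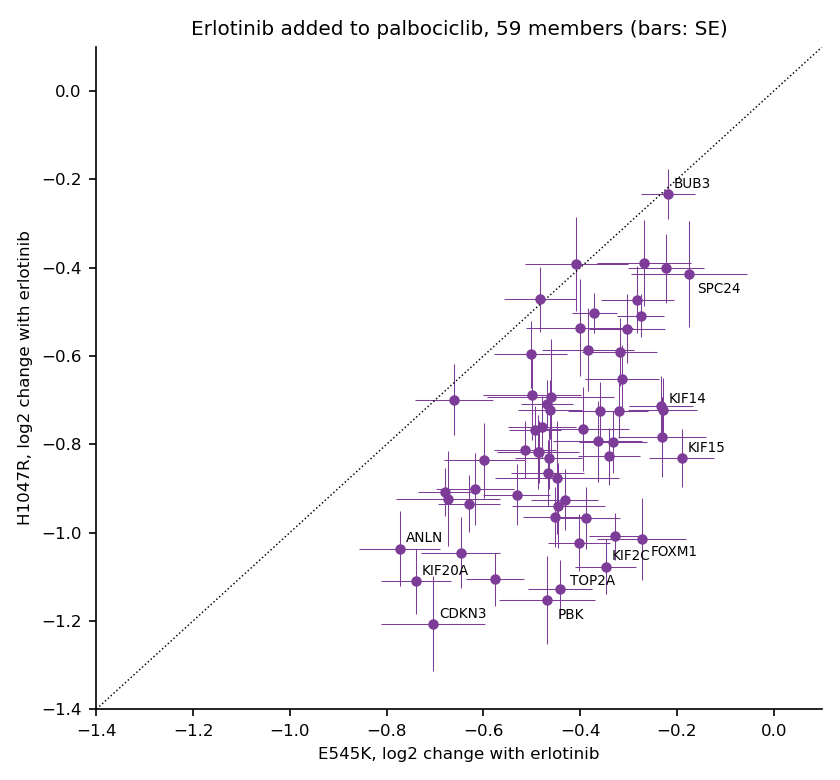
Fitted log2 change (not relative to all genes) with erlotinib added to palbociclib in H1047R (vertical) against E545K (horizontal) for the 59 genes, with SE bars and the line of equal change (dotted). All points lie below 0 on both axes and most lie below the dotted line, with BUB3 near it and FOXM1, KIF2C, TOP2A and PBK far below it.

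The 2 libraries of H1047R palbociclib in the first table differed by transcript length, taken as the longest coding transcript of the reference annotation. Across the 59 genes the log2 difference of replicate 1 minus replicate 2 had a Spearman rho of 0.72 with length, and across 12283 tested genes one of 0.53. Its median was -0.12 in the members under 1500 bases and 0.43 in those of at least 5000 bases, and -0.24 and 0.27 over all tested genes. The same points come from 1 pair of libraries, so these are descriptions. KIF14, for example, stood at 5.49 and 2.40 FPKM, CENPF at 14.5 and 8.24 and ASPM at 7.13 and 4.53, each higher in replicate 1, whereas PTTG1 at 123 and 145 and BIRC5 at 27.2 and 36.7 were higher in replicate 2. In the other groups rho lay between -0.45 (H1047R DMSO) and 0.52 (E545K DMSO) over the members, and was 0.43 in WT palbociclib. For H1047R palbociclib against DMSO the 12 members of at least 5000 bases had a median fitted log2 change, not relative to all genes, of -0.72, and all tested genes of that length one of -0.19. MKI67, TOP2A and CENPF, the lowest of the set there, all have transcripts longer than 5000 bases, and the part of length in their changes was not tested beyond the removal of its trend.

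**Figure D5:**
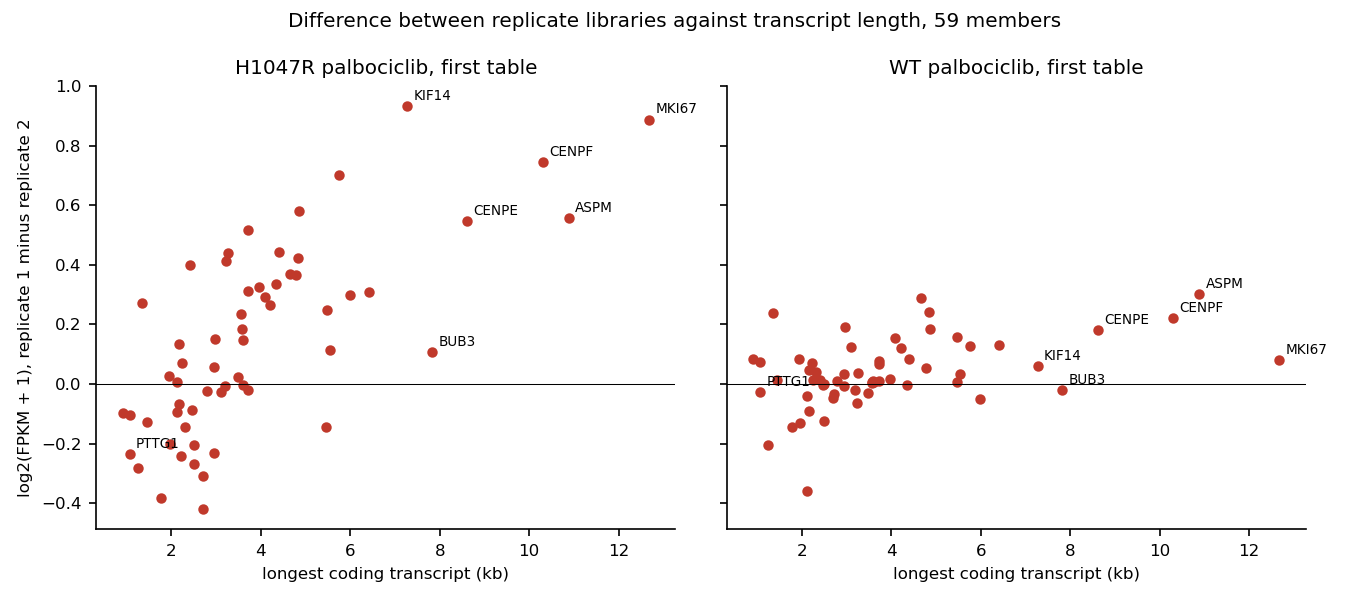
Log2(FPKM + 1) of replicate 1 minus replicate 2 against the length of the longest coding transcript for the 59 genes in H1047R palbociclib (left) and WT palbociclib (right) of the first table. In H1047R the long transcripts of MKI67, KIF14 and CENPF lie highest and short ones such as PTTG1 lie below 0, with a smaller slope in WT cells.

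Other genes of cell division are given by counts, to be set beside all tested genes, of which 19.8% fell and 19.5% rose on palbociclib in H1047R, 19.3% and 32.9% in E545K, and 6.77% and 27.2% in WT cells. Of 59 further mitotic genes, 30 fell and 1 rose on palbociclib in H1047R, 17 fell and 10 rose in E545K, and 25 fell and 3 rose in WT cells. With erlotinib 46 fell in H1047R and 28 in E545K, where 6.35% and 9.11% of all tested genes fell in those lines. TROAP at -1.11 and GTSE1 at -1.02 in H1047R were picked for naming after their values were seen. Of 44 DNA replication genes, 20 fell and 4 rose on palbociclib in H1047R, 8 and 12 in E545K, and 14 and 2 in WT cells, with medians of -0.17, -0.07 and -0.25. In conditioned medium 25 of them rose in H1047R, where 8.65% of all tested genes rose and 5.97% fell, and 0 fell in limma (1 at an unadjusted p below 0.05). In E545K 20 rose (32.4% of all tested genes) and 5 fell (24.9%), and in WT cells 42 rose (51.9%) and 1 fell (18.6%).

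Counts were also taken for the factors that act on these promoters and for the ligase that CDC20 and UBE2C serve. Of 16 genes for MuvB, DREAM and NF-Y proteins, 6 fell and 4 rose on palbociclib in H1047R, 1 and 9 in E545K, and 0 and 2 in WT cells, where 0 fell in limma at an unadjusted p below 0.05 too. At the adjusted p, 19.8% of all tested genes fell and 19.5% rose in H1047R, 19.3% and 32.9% in E545K, and 6.77% and 27.2% in WT cells. Of 17 genes for the core subunits of the APC/C and its coactivator FZR1, 2 fell and 3 rose in H1047R, 4 and 7 in E545K, and 3 and 5 in WT cells. The lists are small, and nothing is read from these counts. Split by promoter, the 31 members with both a CHR and a CCAAT box had a median relative change with erlotinib of -0.78 in H1047R and -0.46 in E545K, and the other 19 with a known promoter -0.75 and -0.35. On palbociclib against DMSO the medians of the 31 were -0.47, -0.36 and -0.56 in H1047R, E545K and WT cells, and those of the 19 were -0.39, -0.39 and -0.38.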

How the data were processed

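RNA was sequenced after oligo(dT) enrichment, per the labels' protocols, and 26 libraries in 13 groups were analysed. The authors deposited FPKM values per gene in 2 tables, which were fitted apart. The submitters' processing notes list HISAT2 2.1.0, Bowtie2 2.3.4.3, RSEM 1.3.1, DESeq2 1.4.5 and GRCh38, without their order or settings. Depth is unknown: of values at low genes, 53.4% and 55.6% were whole multiples of a step within 0.15, too few to recover reads.

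From the deposited FPKM, log2(FPKM + 1) was fitted with limma 3.58.1 (R 4.3.3, trended eBayes, 1 coefficient per group, all groups of a table) for genes of at least 1 FPKM in at least 2 libraries. Fold changes are on the log2(FPKM + 1) scale and understate changes of low genes. Benjamini-Hochberg adjustment ran over all tested genes, and calls had an adjusted p below 0.05. Shares of all tested genes that rose or fell are at that threshold, and none was taken at an unadjusted p. Residual degrees of freedom were 9 and 4. The procedure was tested on simulated data. Of 20 comparisons, those of a line share its control libraries. Relative changes subtract the median over all tested genes.

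The members and lists were chosen with earlier results of these data known. Members named were 14 given in every library, up to 3 called members at each end of the changes in each comparison, and members that went against their role group. Replicate numbers were not used to pair libraries in the main fit. Correlations of same-numbered deviations ran between -0.56 and 0.55 over 36 pairs of groups in the first table, with a median of 0.07. There 15 pairs lay over 0.1 and 6 under -0.1. In the second table they ran between -0.10 and 0.03 over 6 pairs. These values do not settle whether the numbers mark pairs. Alternatives were a pseudocount of 0.1, no filter, quantile normalization, median-centring, a TPM scale, only the groups compared, a replicate block, leaving out each library, and, chosen after seeing the data, removal of a trend with transcript length. Motifs were searched in RefSeq promoters (GRCh38.p14), and lengths came from the reference transcripts. Python 3.11.15 and matplotlib 3.10.9 drew the figures.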

Additional observations from a re-analysis of the deposited data

Results flagged for a closer look

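The response to the same treatment was tested between lines in limma, and values here are fitted differences, not relative to the median of all genes. For palbociclib, the responses of E545K and WT cells differed in 12 of the 59 genes, 11 higher and 1 lower in E545K, beside 10.9% and 14.7% of all tested genes, with 0.84 for KIF23 and 0.77 for NCAPG. The responses of H1047R and WT cells differed in 12 genes, 8 higher and 4 lower in H1047R, beside 5.16% and 17.4%. Values were -0.87 for CENPF and -0.76 for ASPM, whose calls were lost without some single libraries and without the filter on low values, and the highest was 0.72. In both, the 12 called of 59, counting both directions, are no larger a share than among all genes.

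For conditioned medium, E545K differed from WT cells in 44 genes, all lower, beside 37.1% lower and 10.0% higher among all tested genes, whose median was -0.23, with -1.34 for CDKN3 and -1.15 for SPC24. H1047R differed from WT cells in 30, 24 lower and 6 higher, which is at the 40.5% and 10.4% of all tested genes. HMMR had -1.14 and NCAPG -1.06, where all genes had a median of -0.27. For erlotinib, H1047R differed from E545K in 12 genes, all lower, beside 1.27% lower and 0.899% higher among all tested genes, with -0.74 for FOXM1 and -0.73 for KIF2C. That count ran between 0 and 36 when single libraries were left out, and the FOXM1 call was lost without the filter and with a replicate block.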

How the results depend on the processing

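Each group holds 2 libraries of unknown depth, and each spread rests on few libraries. Of 259 recomputed member counts, 215 stayed within 1.5 times; of 1813 recomputed results of named members, 1649 kept their direction and call, 145 lost the call, 4 gained it and 15 changed sign. The cause was not tested. With only the groups compared, counts were 8 for palbociclib in H1047R (42), 15 for conditioned medium in H1047R (27), 39 for palbociclib against conditioned medium in E545K (22), 2 for the palbociclib response of H1047R against WT (12) and 0 for H1047R against E545K in the first table (25). That last count was 16 without the filter and under quantile normalization, 9 under median-centring, 38 on a TPM scale and 12 with the length trend removed. Removing that trend gave 37 for palbociclib against conditioned medium in E545K. Median-centring gave 19 for the palbociclib response of H1047R, and the erlotinib difference was 6 without the filter.

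Leaving out 1 library at a time gave 35 to 46 (H1047R, 42), 31 to 33 (E545K, 38) and 33 to 37 (WT, 42) for palbociclib, and 8 to 21 (H1047R, 27), 24 to 30 (E545K, 35) and 40 to 43 (WT, 45) for conditioned medium. Palbociclib against conditioned medium gave 53 to 55 (H1047R, 58), 5 to 10 (E545K, 22) and 56 to 57 (WT, 58). Mutant against WT in DMSO gave 35 to 42 (H1047R, 43) and 37 to 41 (E545K, 44). Differences in response from WT gave 4 to 28 (H1047R, 12) and 5 to 11 (E545K, 12) for palbociclib, and 23 to 30 (H1047R, 30) and 38 to 40 (E545K, 44) for conditioned medium. H1047R against E545K gave 2 to 35 (25) in the first table and 58 to 59 (58) in the second. Erlotinib gave 46 to 58 (H1047R, 57), 23 to 29 (E545K, 52) and 0 to 36 (difference, 12). A lone library was assumed to vary like the other groups.

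Signs turned for members past no threshold. Under palbociclib in E545K, CCNB1 became -0.057 (median-centring) and -0.029 (length trend), FOXM1 -0.025 and -0.011 in that order, and CENPF -0.010 (quantile) and -0.052 (median-centring). In H1047R CDC20 became -0.054 (quantile), -0.024 (TPM scale) and -0.021 (length trend). Leaving out libraries gave -0.13 to 0.26 for CDC20, -0.30 to 0.12 for BIRC5 and -0.044 to 0.45 for PLK1 in H1047R, and -0.054 to 0.22 for CENPF in E545K. The replicate block brought the count for the erlotinib difference to 5 (12) and moved no other count over 1.5 times, as with 42 genes for palbociclib in WT, 39 in E545K and 44 in H1047R.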
